A study of Mus musculus with 23 samples.

Results

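Septins are GTP-binding proteins that join into rod-shaped hetero-oligomers and, from these, into filaments and rings on membranes and on the actin and microtubule cytoskeleton. Mammalian septins fall into 4 groups named after SEPT2, SEPT3, SEPT6 and SEPT7, and members of a group can take each other's place in the rod. In neurons they are known from the base of dendritic branches and spines and from presynaptic terminals, where some of them bind synaptic vesicles and the fusion machinery. The 10 septin genes Septin2 to Septin11 are described here, out of 13 septins in the annotation and 56941 genes in the count tables, and Septin1, Septin12 and Septin14 are given as the rest of the family. The 10 genes were chosen by name with the CRE against RFP comparison of these same libraries already known. Their fold changes are therefore a description, and no p is given for them.

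The neurons came from hippocampi of newborn (P0) homozygous Nedd8cKO mice, in which LoxP sites surround part of the gene of the ubiquitin-like modifier Nedd8. Both groups carry this allele. They were infected at DIV1 (day 1 in vitro) with lentivirus expressing either red fluorescent protein (RFP, the control) or CRE recombinase tagged with RFP (CRE), in both cases from the Synapsin1 promoter, which is active in neurons, so recombination is not directed to the glia of these mixed cultures. RNA was taken on day 12 according to the labels (the study's methods give the following day) and sequenced as 12 CRE and 11 RFP libraries. A library is named by virus, culture and number, so Nedd8Cre1-3 is taken as library 3 of culture 1, and there were 3 cultures. The labels do not say whether the libraries of a culture came from separate animals or dishes, so the spread between them may be technical.

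Nedd8 itself lay between 5.92 and 18.0 CPM (read counts scaled to the size of each library) in the CRE libraries compared and between 44.1 and 76.0 CPM in the RFP libraries, with no overlap. The comparison used 21 libraries, 11 CRE with 7430401 to 13345552 counts and 10 RFP with 9833872 to 17112815 counts, and left out Nedd8Cre3-3, which had 1546796 counts, and Nedd8RFP3-2, in which Rn18s-rs5, an rRNA gene, took 24.2% of the counts. This is the set of the study's count table, while its methods name Nedd8Cre1-3 and Nedd8Cre3-3 as the libraries removed, so Nedd8Cre1-3 is kept here. Among the libraries kept, Nedd8Cre1-3 and Nedd8RFP2-4 stood apart: their counts leaned towards GC-rich genes (Spearman rho across 14449 genes of the library's deviation with exon GC content, 0.73 and 0.49, against -0.14 to 0.27 in 19 other libraries), and 0.261% and 3.43% of their counts were mitochondrial, against 7% to 11.1%. Nedd8Cre3-3 leaned the same way (0.55). Values are therefore also given over the 19 libraries without these 4. Nedd8Cre3-2 stayed among the 19, although its rho of 0.27 was their highest, the next being 0.096 in Nedd8Cre2-1. It also had their lowest mitochondrial share (7%) and the most genes with a count (23738). A gene is "called" at an adjusted p under 0.05 in an edgeR fit over all 14488 genes that passed the filter on low counts.

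Of the 10 septins, all of which passed that filter, 2 were called higher in CRE (Septin4 and Septin11) and 2 lower (Septin5 and Septin3). Over all genes tested, 16.4% were called higher and 13.8% lower. The median log2 fold change was 0.05 over the 10 septins and 0.02 over all genes tested. Since the genes were chosen with this contrast known, nothing is read from these counts. In the 19 libraries, where 19.4% of all genes were called higher and 18.7% lower, 3 septins were called higher, Septin9 being the added gene, and 2 lower.

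Before the values, the 250 bases upstream of the start of the canonical annotated transcript of 3 called septins are shown, since these are the genes whose levels differed between the viruses. They were read from the GRCm39 genome at chr11:87457229-87457478 (Septin4, plus strand), chr5:93240937-93241186 (Septin11, plus strand) and chr15:82152753-82153002 (Septin3, plus strand), and are written 5′ to 3′ along the gene. For Septin3 another annotated transcript starts further upstream, so its window lies inside the gene as annotated. Capitals mark matches on either strand to 5 motifs: TGANNNNGC (the core of the antioxidant response element), TATAAA (the TATA box), CCAAT (the box bound by NF-Y), CACGTG (the palindromic E-box) and GGGCGG (the GC box); none of these matches overlapped another.
Septin4: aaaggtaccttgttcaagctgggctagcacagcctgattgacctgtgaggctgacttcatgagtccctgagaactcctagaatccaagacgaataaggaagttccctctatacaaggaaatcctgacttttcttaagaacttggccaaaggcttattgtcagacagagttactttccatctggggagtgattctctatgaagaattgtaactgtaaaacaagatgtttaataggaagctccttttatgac
Septin11: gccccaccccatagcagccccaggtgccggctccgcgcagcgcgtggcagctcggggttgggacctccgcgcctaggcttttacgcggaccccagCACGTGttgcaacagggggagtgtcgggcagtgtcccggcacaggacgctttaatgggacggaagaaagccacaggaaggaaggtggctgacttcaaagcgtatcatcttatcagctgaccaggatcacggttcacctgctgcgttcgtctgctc
Septin3: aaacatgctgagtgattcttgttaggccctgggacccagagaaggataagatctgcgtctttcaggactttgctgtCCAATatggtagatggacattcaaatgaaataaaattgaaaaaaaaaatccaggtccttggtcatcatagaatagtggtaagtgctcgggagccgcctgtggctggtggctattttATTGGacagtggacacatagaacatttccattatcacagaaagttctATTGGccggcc
The Septin11 window had 62.8% GC and 19 CpG dinucleotides, the Septin3 window 43.2% and 4, and the Septin4 window 41.6% and 1, against medians of 53.2% and 8 over 21770 promoters. Septin3 held 3 CCAAT, Septin11 held 1 CACGTG, and Septin4 held none of the 5. Over all promoters, 33.8% held TGANNNNGC, 11.9% TATAAA, 36.5% CCAAT, 6.26% CACGTG and 36.3% GGGCGG. These are letter matches in 1 window per gene, and which start sites these neurons used was not measured.

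Septin4, a SEPT2 group member known from astrocytes and dopaminergic neurons, has a splice form, ARTS, that binds the apoptosis inhibitor XIAP. The gene lies at chr11:87457479-87481365 (GRCm39, plus strand), and counts per gene do not separate its forms. Its level was 7.36 CPM in the lowest RFP library, 12.05 at the median and 15.8 in the highest, and in the CRE libraries 48.6, 140.2 and 198.5 CPM. Every CRE library was above every RFP library, which held for 2.64% of all genes tested. The mean was 126 ± 52.6 CPM (SD, n = 11) in CRE and 11.7 ± 2.91 (n = 10) in RFP, and the fitted log2 fold change was 3.41 ± 0.24 (SE), or 10.7-fold. In a bulk sample, more cells of a type and more RNA per cell cannot be told apart.

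The CRE libraries were not alike in Septin4. Culture 1 lay between 140.2 and 198.5 CPM, culture 2 between 58.8 and 187.7, and culture 3 between 48.6 and 77.6, while the RFP libraries of the cultures overlapped (7.95 to 12.3, 11.8 to 15.8 and 7.36 to 12.9 CPM). Within cultures, the log2 fold change was 4.05 ± 0.31 in culture 1, 3.20 ± 0.29 in culture 2 and 2.70 ± 0.28 in culture 3 (SE). The choice of the genes rested on the pooled contrast, so the difference between cultures could be tested. Such a test and these fold changes take CRE and RFP libraries of equal number as the same culture, which the labels do not state. An edgeR interaction F test of culture with virus gave Septin4 an unadjusted p of 0.0185 and an adjusted p of 0.977 over all 14488 genes, of which 1 (0.0069%) was called and 595 had an unadjusted p under 0.05. None of the other 9 septins was called (adjusted p from 0.977 to 0.986), and none was in the 19 libraries (adjusted p from 0.517 to 0.998). These p-values do not show that the cultures responded alike. The low CRE libraries for Septin4 were Nedd8Cre3-2 at 48.6 CPM and Nedd8Cre2-2 at 58.8 CPM.

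**Figure D1:**
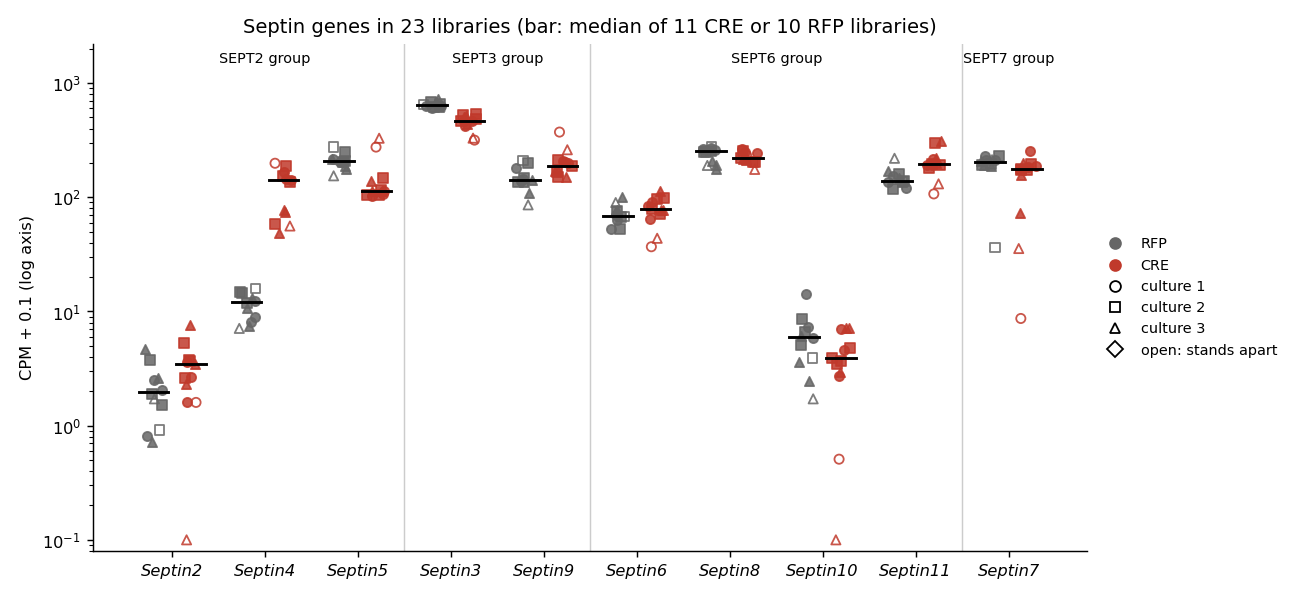
CPM plus 0.1 of the 10 septins on a log axis in all 23 libraries, RFP in grey and CRE in red, with the culture as the symbol, open symbols for the 4 libraries that stand apart and a bar at the median of the 11 CRE or 10 RFP libraries compared. Septin4 separates the viruses without overlap, from 7.36 to 15.8 CPM in RFP to 48.6 to 198.5 CPM in CRE, and Septin7 falls to 8.58 CPM in Nedd8Cre1-3 and 36.4 CPM in Nedd8RFP2-4.

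Markers of other cells were measured in the same libraries. The 10 astrocyte markers summed to 1641 to 5283 CPM in CRE and 3693 to 7942 CPM in RFP libraries, with 3 of 10 called higher (Gjb6, Gja1 and Sox9) and 4 lower (Aldh1l1, Slc1a2, Aldoc and S100b). The shares over all genes, 16.4% higher and 13.8% lower, stand beside these and the following counts. For the astrocyte markers, the library with the lowest sum, Nedd8Cre3-2, also had the lowest Septin4 of the CRE group, and Nedd8Cre2-2 was next lowest in both. The other CRE libraries did not keep this order. Nedd8Cre3-1 and Nedd8Cre3-4 had sums of 4876 and 4738 CPM with Septin4 at 74.5 and 77.6 CPM. Nedd8Cre2-3 had a sum of 3997 CPM with Septin4 at 187.7 CPM. The neuronal markers summed to 3199 to 6434 CPM in CRE and 6348 to 7684 CPM in RFP, with 1 of 10 called higher and 6 lower. The lowest CRE sum was again in Nedd8Cre1-3, followed by 3800 CPM in Nedd8Cre3-2. Of 9 tested markers of the oligodendrocyte lineage, where septins including Septin4 are part of mature myelin, none was called higher by edgeR and 6 were lower. The 12 markers of this list summed to 447.2 to 1981 CPM in CRE and 678.4 to 1978 CPM in RFP. The highest sums were in Nedd8Cre1-3 and Nedd8RFP2-4, which stood apart. The next highest were 1065 CPM in Nedd8Cre3-4 and 1836 CPM in Nedd8RFP2-1. Dividing cell markers were lower in 10 of 10 (sums of 6.68 to 219.4 CPM in CRE, 213.3 to 359.7 in RFP). Microglial markers summed to no more than 14.0 CPM in any library compared, with 1 of 3 tested higher, and of 6 tested endothelial and mesenchymal markers 1 was higher and 1 lower (15.1 to 241.9 CPM in CRE, 18.4 to 113.9 in RFP). The part of these cells in the septin values was not tested.

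Septin5, the SEPT2 group member that sits on synaptic vesicles and binds syntaxin 1A, was lower in the CRE libraries. It lies at chr16:18439064-18449222 (minus strand). Its level was 177.6 CPM in the lowest RFP library, 208.2 at the median and 276 in the highest, against 101.8, 112.7 and 275 CPM in CRE. Of the 11 CRE libraries, 10 were below every RFP library, and Nedd8Cre1-3 was the exception. The log2 fold change was -0.74 ± 0.15 (SE) in the 21 libraries and -0.86 ± 0.079 in the 19, where the highest CRE library (146.5 CPM) was below the lowest RFP library (177.6 CPM). The share of all genes separated like this in the 19 libraries was not counted, so nothing is read from it. Without culture 2 the value was -0.56 ± 0.21 and Septin5 was not called. Counting adds a limit, because 2087 exon bases of Septin5 are shared on the same strand with Gp1bb and 2206 with Gm49601, and 49.6% of its stretches of 50 exon bases also occur in another gene. How the authors' counting treated reads shared between genes was not stated.

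The balance of Septin4 and Septin5 within the SEPT2 group differed between the viruses. Septin4 counts per Septin5 count ranged from 0.0342 to 0.0727 (median 0.0572) in RFP libraries and from 0.35 to 1.65 (median 0.934) in CRE libraries. The lowest ratio of the CRE group was again in Nedd8Cre3-2. Septin2, the namesake of the group and first described as Nedd5, stayed between 0.619 and 4.59 CPM in RFP (median 1.87) and between 1.5 and 7.54 in CRE (median 3.38). These are 6 to 90 counts per library, and its log2 fold change of 0.71 ± 0.37 (SE) was not called. Septin2 is known as a widely expressed septin, and whether its reads were lost in counting was not tested. Its exons overlap those of Hdlbp on the opposite strand by 406 bases, and 2.95% of its stretches of 50 bases occur in another gene. Septin1 of the same group had at most 5.11 CPM and a log2 fold change of -0.13 ± 0.52.

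Septin3, a neuron-enriched septin of presynaptic terminals and a substrate of cGMP-dependent protein kinase, was the most abundant septin. It lies at chr15:82152665-82178838 (plus strand). Its level was 602, 641.7 and 724.9 CPM (lowest, median and highest) in RFP and 316.5, 468.3 and 534.8 CPM in CRE. All CRE libraries were below all RFP libraries, which held for 2.08% of all genes tested. The log2 fold change was -0.50 ± 0.089 (SE), with -0.59 ± 0.22, -0.42 ± 0.12 and -0.49 ± 0.13 in cultures 1, 2 and 3. The lowest library was Nedd8Cre1-3, and without the 4 libraries that stand apart the CRE range was 419.1 to 534.8 CPM and the fold change -0.45 ± 0.063. Septin3 was thus separated in every culture, with a small shift in each.

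Septin9, the other measured SEPT3 group member, is part of septin rods in many cell types and binds microtubules. Its level was 108.7, 141.9 and 208.8 CPM in RFP and 148.9, 187 and 372.3 CPM in CRE, and the groups overlapped. The highest CRE value was Nedd8Cre1-3 and the highest RFP value Nedd8RFP2-4. The log2 fold change of 0.36 ± 0.15 (SE) was not called in the 21 libraries. It was called in the 19 libraries (0.28 ± 0.094), over all 23 (0.47 ± 0.15), without the pair that the study's methods remove (0.30 ± 0.12), after removal of each library's GC trend (0.30 ± 0.095), and when Nedd8RFP2-3 (0.40) or Nedd8RFP2-4 (0.43) alone was left out. Without Nedd8Cre1-3 alone it was 0.22 ± 0.10 and without culture 1 it was 0.15 ± 0.13, neither called. The cultures gave 0.67 ± 0.30, 0.00 ± 0.16 and 0.35 ± 0.15. Septin12, a sperm septin, had 0 counts in every library compared, which allows up to 3 counts per library.

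**Figure D2:**
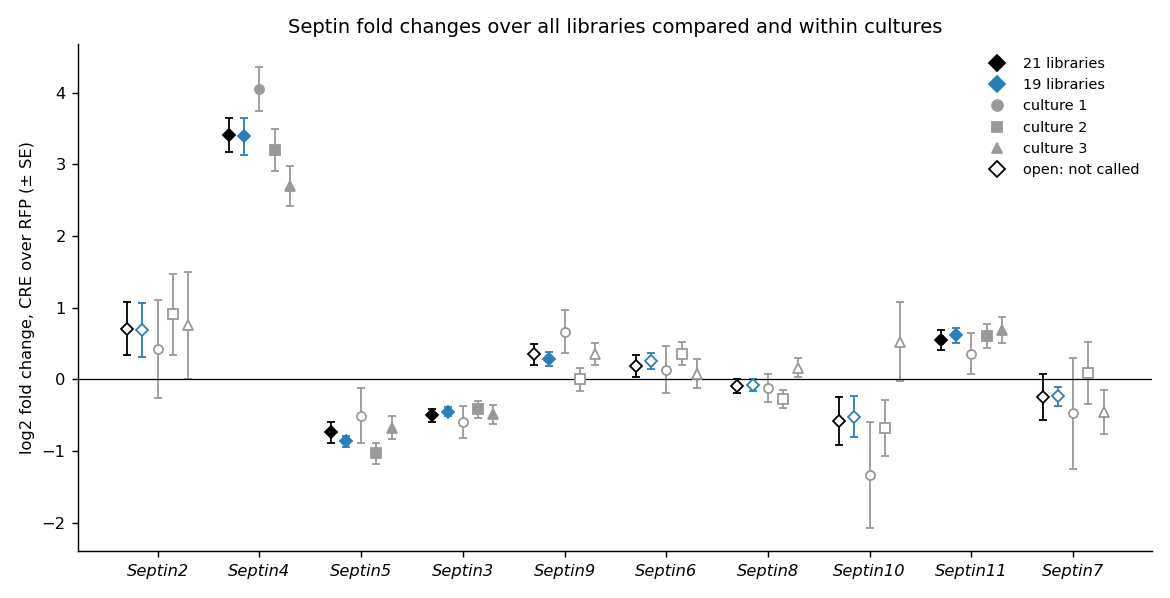
Log2 fold change of CRE over RFP with its standard error for each septin, in the 21 libraries compared (black), the 19 libraries (blue) and each culture alone (grey), with open symbols where the gene was not called. Septin4 is the farthest from 0 in every setting, from 2.70 in culture 3 to 4.05 in culture 1, while Septin7, Septin8 and Septin10 change sign between cultures.

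In the SEPT6 group, Septin11, which is known from dendritic branches and spine necks, was higher in CRE. It lies at chr5:93241187-93344401 (plus strand). Its level was 117.9, 138 and 169.7 CPM in RFP and 106.9, 194.3 and 312.3 CPM in CRE. Again 10 of 11 CRE libraries lay on one side of all RFP libraries, here above them, and Nedd8Cre1-3 lay below them. The log2 fold change was 0.55 ± 0.13 (SE) in the 21 and 0.61 ± 0.10 in the 19 libraries, where the lowest CRE library was at 181 CPM. Here too the share of all genes separated in the 19 libraries was not counted. Without culture 2 it was 0.51 ± 0.19 and not called. The highest Septin11 values, 312.3 CPM in Nedd8Cre3-2 and 301.6 CPM in Nedd8Cre2-2, were in the CRE libraries with the lowest Septin4. Of these, Nedd8Cre3-2 was the library of the 19 that leaned most towards GC-rich genes (rho 0.27), while Nedd8Cre2-2 had a rho of -0.139. Nedd8Cre1-3, with a rho of 0.73, had the lowest Septin11 of the libraries compared. The part of GC content in Septin11 was not tested.

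The other SEPT6 group members were not called. Septin6, the common partner of SEPT2 and SEPT7 in the rod, lay between 52.3 and 101.2 CPM in RFP and between 36.8 and 113.6 CPM in CRE (log2 fold change 0.19 ± 0.15, SE). Septin8, which binds the vesicle protein VAMP2, lay between 175.7 and 278.3 CPM in RFP and between 204.4 and 262.4 in CRE (-0.09 ± 0.095). Septin10 was low, with 2.37 to 14.3 CPM in RFP and 0.409 to 7.12 CPM in CRE (-0.58 ± 0.34), and its exons overlap Sh3rf3 on the opposite strand by 2946 bases, which makes its counts uncertain unless counting used the strand. Septin14 had 1 count in 1 CRE library and none in the other libraries compared.

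Septin7, the only member of its group and the shared core of septin rods, was the septin most marked by single libraries. Its level was 36.4, 202.6 and 227.9 CPM in RFP and 8.58, 178.5 and 252.8 CPM in CRE, with a log2 fold change of -0.24 ± 0.32 (SE) that was not called. The low values were Nedd8Cre1-3 (8.58 CPM), Nedd8RFP2-4 (36.4), Nedd8Cre3-2 (72.9) and, among the libraries left out, Nedd8Cre3-3 (35.5). Without the 4 libraries that stand apart the value was -0.24 ± 0.13. Its exons have the lowest GC content of the 10 septins, 36.1%, and those of Septin5 the highest, 61%. Septin5 was high in Nedd8Cre1-3 (275 CPM), Nedd8RFP2-4 (276) and Nedd8Cre3-3 (328.8), but not in Nedd8Cre3-2 (138.7). Septin5 counts per Septin7 count were 32.0 in Nedd8Cre1-3, 7.58 in Nedd8RFP2-4 and 9.27 in Nedd8Cre3-3. Over the 19 libraries they were 0.422 to 1.9 in CRE, the highest in Nedd8Cre3-2, and 0.89 to 1.29 in RFP.

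**Figure D3:**
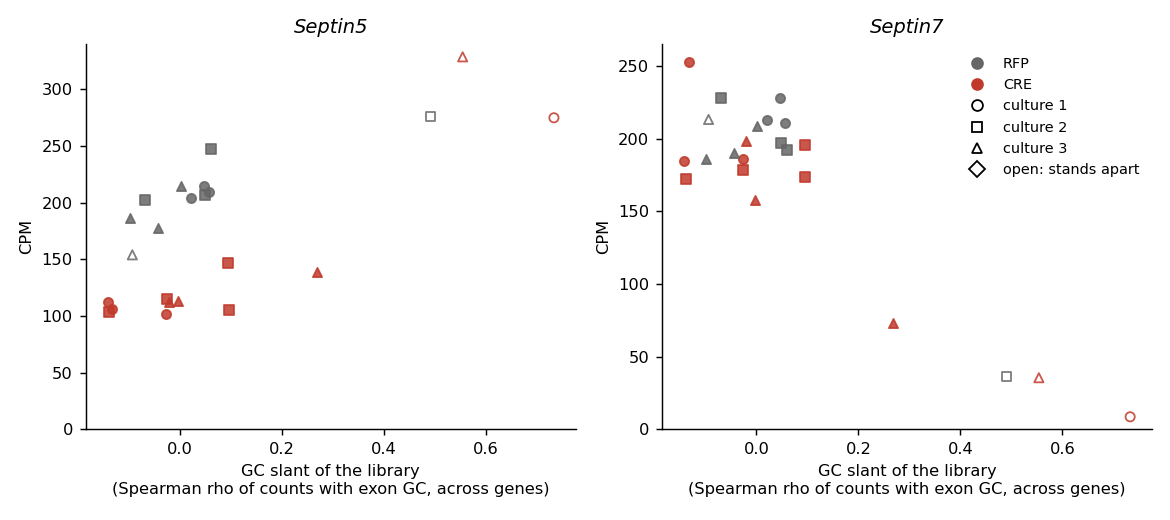
CPM of Septin5 (left) and Septin7 (right) in 23 libraries against the lean of each library towards GC-rich genes (Spearman rho across genes), RFP in grey and CRE in red, open symbols for libraries that stand apart. The libraries with a rho of 0.49 or more have Septin7 at 8.58 to 36.4 CPM and Septin5 at 275 to 328.8 CPM.

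Levels of different septins were compared in the RFP libraries as CPM per kilobase of exon. Septin3 had 75.3 ± 4.44 (SD, n = 10), Septin5 35.3 ± 4.7, Septin8 33.8 ± 5, Septin9 20.2 ± 4.14, Septin7 14 ± 4.12, Septin11 12.6 ± 1.43, Septin6 6.24 ± 1.24, Septin4 2.15 ± 0.536, Septin10 0.824 ± 0.438 and Septin2 0.166 ± 0.105. An exact two-sided sign-flip permutation test over libraries, adjusted over the 9 neighbouring pairs, separated 7 pairs (adjusted p from 0.00352 to 0.00502, where 0.00195 is the smallest unadjusted p that 10 libraries allow). The test treated each library as a unit, although the 10 libraries came from 3 cultures, so these p-values do not measure the spread between cultures. Septin8, for one, was at 175.7 to 206.3 CPM in RFP culture 3 and 249 to 278.3 CPM in RFP culture 2. No version by culture was run. Septin5 and Septin8 did not differ beyond their spread (adjusted p = 0.349, exact permutation test), nor did Septin7 and Septin11 (adjusted p = 0.973, exact permutation test). The second result rests on Nedd8RFP2-4: in the 9 RFP libraries of the 19, Septin7 had 15.3 ± 1.16 and Septin11 12.6 ± 1.51, Septin7 was higher in 8 of 9, and the pair differed (adjusted p = 0.0176, exact permutation test). The order depends on the length used: per kilobase of coding sequence Septin10 stood above Septin4, at 4.59 ± 2.44 and 4 ± 1 with no difference beyond their spread (adjusted p = 0.752, exact permutation test), and Septin7 and Septin11 stood above Septin9. Septin3 and Septin5 led with each of the 3 lengths. Septin5 was above Septin8 in 9 of 10 libraries per kilobase of the longest transcript (adjusted p = 0.0105, exact permutation test). The same held per kilobase of coding sequence (9 of 10, adjusted p = 0.0132, exact permutation test), so that pair too depends on the length used. Septin8 came next but was not separated from Septin7 per kilobase of the longest transcript (adjusted p = 0.621, exact permutation test) or of coding sequence (adjusted p = 0.354, exact permutation test), and in the 9 libraries Septin7 stood at 45.1 ± 3.42 and Septin8 at 44.8 ± 6.65 per kilobase of the longest transcript.

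The septin total overlapped between the groups while its make-up differed. Summed per kilobase, the septins reached 188 to 212 CPM per kilobase in RFP (median 202) and 178 to 214 in CRE (median 191). Septin4 made up 0.673% to 1.37% of this total in RFP and 4.74% to 17.1% in CRE. Septin3 took 34.9% to 42.4% in RFP and 17.1% to 32.2% in CRE, and Septin5 15.5% to 21.4% and 8.24% to 21.2%. The highest Septin5 share of the CRE libraries was in Nedd8Cre1-3. Over the 19 libraries Septin5 took 15.5% to 19.8% in RFP and 8.24% to 12.1% in CRE. Septin3 took 34.9% to 42.4% and 25.5% to 32.2% there, and Septin4 0.673% to 1.32% and 4.74% to 16.9%. By group, the SEPT3 group went from a median of 47.5% in RFP to 41.2% in CRE without overlap between libraries, the SEPT2 group from 18.3% to 23.4%, the SEPT6 group from 27.1% to 30% and SEPT7 from 7.47% to 6.79%, the last 3 with overlap. Septin2 is part of these sums at the low level given above.

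**Figure D4:**
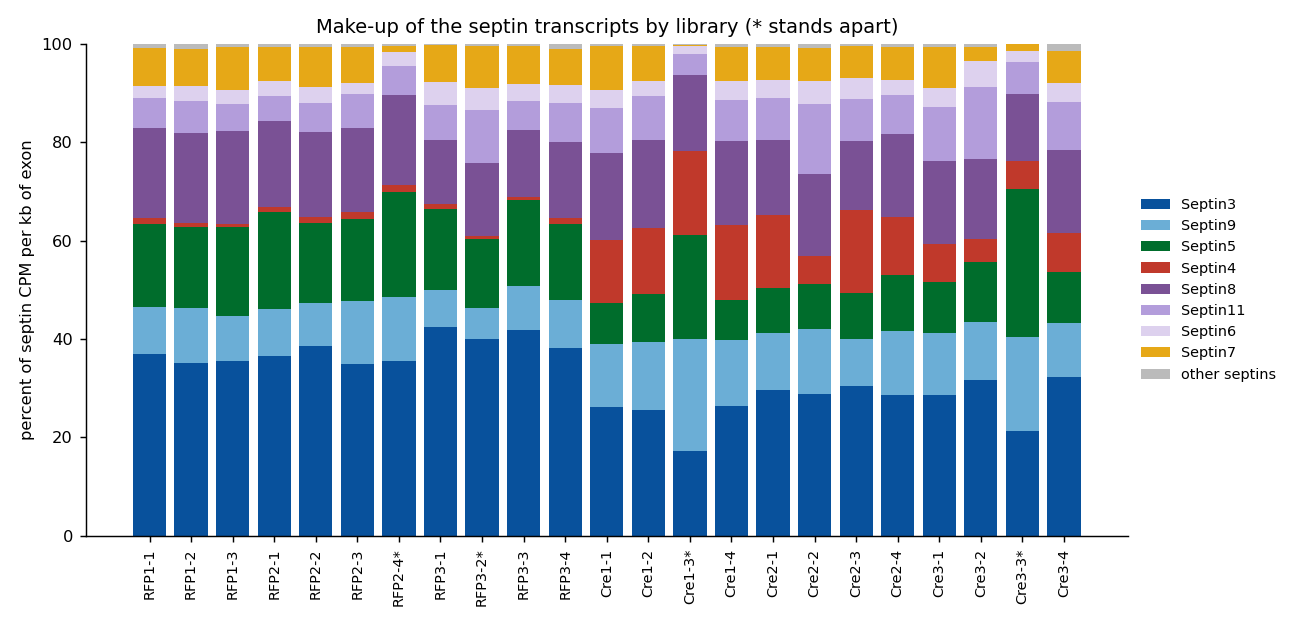
Stacked bars of each septin's percent of the septin total (CPM per kilobase of exon) in 23 libraries, RFP on the left and CRE on the right, with an asterisk on the libraries that stand apart. The red band, Septin4, is at most 1.37% in the RFP libraries compared and 4.74% to 17.1% in the CRE libraries, and the dark blue band, Septin3, is narrower in each CRE library.

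Septins act with other proteins, and 3 lists of these, chosen with earlier results of these libraries known, were read from the same fit. Their counts stand beside 16.4% of all genes called higher and 13.8% lower, and nothing particular to a list is read from them. The Borg proteins are effectors of the GTPase CDC42 that bind septins and steer their filaments. Of 5 tested genes of this list, 3 were called higher and none lower by edgeR, with a median log2 fold change of 0.77. Cdc42ep1 rose from a median of 12.1 to 25.3 CPM (1.20 ± 0.22 (SE), adjusted p = 0.000158), Cdc42ep2 from 11.1 to 17.2 CPM (0.82 ± 0.17, adjusted p = 0.00043), and Cdc42ep4 from 53.3 to 89.3 CPM (0.77 ± 0.19, adjusted p = 0.0026). Cdc42 itself was at a median of 422.9 CPM in RFP and 421.9 in CRE and was not called (adjusted p = 0.651). In both groups Cdc42ep5 had a median below 0.15 CPM and was not tested.

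Of the 7 genes of septin-dependent cytokinesis, 2 rose and 2 fell, against 16.4% and 13.8% of all genes. Myh9, a nonmuscle myosin heavy chain, rose from a median of 56.9 to 89.3 CPM (log2 fold change 0.95 ± 0.16, adjusted p = 4.16e-05), and Arhgef18, an exchange factor for RhoA, from 44.1 to 68.5 CPM (0.76 ± 0.16, adjusted p = 0.000838). Anln, the scaffold anillin of the cleavage furrow, fell from 14.1 to 6.43 CPM (-1.23 ± 0.29, adjusted p = 0.00177), and Cit, citron kinase, from 36.6 to 24.7 CPM (-0.65 ± 0.18, adjusted p = 0.00622). These fell beside the dividing cell markers given above, and the part of dividing cells in them was not tested.

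Of the 10 neuronal partners and kinases, none was called higher and 3 were lower, against 16.4% and 13.8% of all genes. Stx1a, the syntaxin that Septin5 binds, fell from a median of 113.5 to 50.9 CPM (log2 fold change -1.04 ± 0.17, adjusted p = 3.82e-05). Dpysl5, the growth cone protein CRMP5, fell from 535.8 to 445.3 CPM (-0.40 ± 0.12, adjusted p = 0.0139). The kinases Taok2, which phosphorylates SEPT7, and Prkg1 and Prkg2, which encode cGMP-dependent kinases, were not called (adjusted p = 0.362, 0.38 and 0.128 in the edgeR fit), nor was Xiap (0.589). All of the called partners named here kept their direction and stayed called in the 19 libraries.

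**Figure D5:**
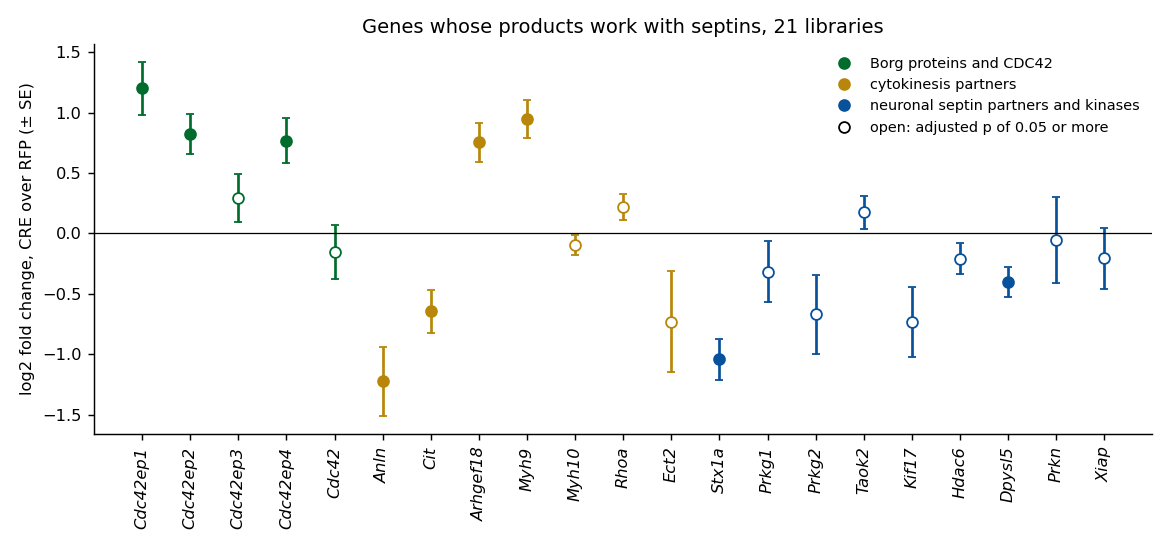
Log2 fold change of CRE over RFP with its standard error in the 21 libraries for tested genes of the 3 partner lists, filled where the adjusted p was under 0.05. Cdc42ep1, Cdc42ep2, Cdc42ep4, Myh9 and Arhgef18 lie above 0, and Anln, Stx1a, Cit and Dpysl5 below.

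Genes that varied like the septins within the groups were sought for Septin4 and Septin5, the called septins with the largest fold change in each direction. After subtraction of the group means of log2 CPM over the 21 libraries, Septin4 was most like Gm44645 (Pearson r = 0.906), Atp2b2, a plasma membrane calcium pump (0.885), and Acsbg1, an acyl-CoA synthetase known from astrocytes (0.867). Over the 19 libraries these were 0.898, 0.877 and 0.865. Septin5 was most like Acap3 (0.945) and Pik3r2 (0.944) among the genes reported, and over the 19 libraries these were 0.785 and 0.715. The exons of Acap3 have 58.5% GC and those of Pik3r2 60.1%, beside 61% for Septin5. The part of the lean of single libraries towards GC-rich genes in these correlations was not tested. These correlations are descriptions over libraries that differ in depth and composition, also within a culture, and each library was taken as a unit.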

How the data were processed

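Libraries were made by the authors with a stranded mRNA kit. Per the labels, bcl2fastq 2.20.0.422, STAR 2.7.8a and featureCounts 1.5.0-p1 were used on GRCm39; the strand setting and the treatment of reads that map to several places are not given in the sources used here. The authors deposited raw read counts per Ensembl gene, without normalization. GENCODE M39 annotation and the GRCm39 genome gave 56323 gene names, exon lengths, GC content and promoters; the authors' annotation release was an earlier one. The 10 septins and the partner and marker lists were chosen with earlier results of these data known.

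Counts were fitted with edgeR 4.0.16 in R 4.3.3 (filterByExpr, TMM factors, robust quasi-likelihood test, Benjamini-Hochberg adjustment over all genes tested) without covariates on 21 libraries. CPM used TMM factors over 23 libraries. Before logs were taken, 0.5 was added to counts. The fit was tested on simulated data. Alternatives covered the libraries, DESeq2 1.42.0, RLE factors, no filter, blocks for culture or for culture with library number, counts summed within cultures, GC trend removal (lowess span 0.3), and each culture or library left out. Each culture alone, the block on 19 libraries and the order of levels in their RFP libraries were added after seeing the data. Named genes were all septins, every called partner, Nedd8, and the 3 genes most like Septin4 and Septin5. A called partner gene, a gene most like Septin5 and a promoter are not reported here. Tables were computed in Python with pandas.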

Additional observations from a re-analysis of the deposited data

Results flagged for a closer look

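Among the 10 RFP libraries compared, the value of a single library lay far from the rest for 3 of the 10 septins, where chance gives this in about 1 of 20 groups. The cut-off was set for 10 libraries only, so the 11 CRE libraries were not checked. Septin7 was at 36.4 CPM in Nedd8RFP2-4, against 186 to 228 CPM in the other RFP libraries, and this is a library with a lean towards GC-rich genes (Spearman rho 0.49). Septin6 was at 101 CPM in Nedd8RFP3-1, against 52.3 to 76.7 CPM, and Septin10 at 14.3 CPM in Nedd8RFP1-2, against 2.37 to 8.45 CPM. No septin was called for a difference between cultures.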

How the results depend on the processing

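Septin4 and Septin3 were called in the same direction in all 14 alternatives to the libraries, tool, scaling, filter, block and cultures left out (3.06 to 3.60 and -0.55 to -0.43 on the log2 scale) and without any of the 21 libraries in turn. Septin5 and Septin11 were called in 13 of 14, and were lost without culture 2, which left 1 septin called higher and 1 lower, 3 partners called lower and 2114 genes called of all, against 4370 in the comparison reported. Septin9 was called in 5 of 14, and Septin6 only in the 19 libraries with culture as replicate block, where 4 septins were called higher. Without the filter on low counts 6920 genes were called. All 23 libraries left 3 partners called lower. Culture 1 alone called 448 genes, 1 septin higher (Septin4) and 0 lower, 0 partners higher and 1 lower, and culture 3 alone 1165 genes, 1 partner higher and 2 lower. Leaving out 1 library in turn gave 4031 to 5507 genes called, the highest without Nedd8Cre1-3. The direction turned, with no call on either side, for Septin8 without culture 2 (0.0256) and in culture 3 alone (0.165), for Septin7 in culture 2 alone (0.0875) and for Septin10 in culture 3 alone (0.526). Without the 4 libraries that stand apart, 36 genes were called for a difference between cultures, against 1. In the order of levels, 7 neighbouring pairs differed per exon length, 6 per longest transcript and 5 per coding length, and 8, 7 and 6 in the 9 RFP libraries of the 19. The cause of these changes was not tested.

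The comparison reported did not take the numbers of the cultures as pairs. In the 21 libraries, deviations of CRE and RFP culture means correlated across genes at 0.0292, 0.0478 and 0.119 (cultures 1, 2 and 3). There CRE culture 1 was most like RFP culture 2 (0.13). In the 19 libraries the values for equal numbers were 0.0685, 0.172 and 0.0696. Each CRE culture was then most like the RFP culture of its number, and the 0.13 became -0.0231. Whether equal numbers mark the same culture was not settled. With culture as replicate block 4267 genes were called, with culture and library number 4140, and no septin call changed in either. Septin2, Septin10 and Septin1 have too few counts for small differences to be detectable at this depth.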

Other observations

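The libraries left out of the comparison held these septin levels. In Nedd8Cre3-3, Septin4 was at 55.9 CPM, above every RFP library, Septin3 at 329.4, Septin5 at 328.8, Septin11 at 131 and Septin9 at 260.6 CPM, and no count fell on Septin2 or Septin10. In Nedd8RFP3-2, Septin4 was at 7.01 CPM, Septin3 at 625.2, Septin5 at 154, Septin11 at 219.4 and Septin9 at 85.7 CPM.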
